A study of Mus musculus with 9 samples.

Results

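Conventional synapses release transmitter from vesicles that carry a shared set of proteins, and 10 genes of that set are described here: Syt1, Syp, Sv2a, Sv2b, Vamp2, Snap25, Stx1a, Syn1, Syn2 and Cplx1. They are a list of gene names, and all 10 were found among the 21769 genes of the files, and all 10 passed the filter on low counts, which left 14300 genes. RNA was sequenced from whole retinae of mice in 3 groups, with 3 libraries in each group and 2 retinae pooled in each library. The rd10 mice, whose retinae are labelled Degenerated, were taken at postnatal day 61. They carry a mutation of Pde6b, a phosphodiesterase subunit of rod photoreceptors, and lose their rods after birth. The GFP-expressing mice have retinae labelled Normal. Their age was read as postnatal day 42, the age given for a line written as Gg13, because no other group was without an age. The wild type mice, also labelled Normal, were taken at postnatal day 48. No source used here gives the promoter that drives GFP, the sex of the mice or the strain background. Age went fully with genotype, so the effects of age and genotype cannot be told apart.

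A nerve terminal stores transmitter in vesicles, tethers them in a reserve with synapsins, and fuses them through the SNARE proteins VAMP2 on the vesicle and SNAP-25 and syntaxin on the plasma membrane, with synaptotagmin as the calcium sensor and complexin as a clamp and helper of fusion. Amacrine cells of the retina use this conventional form, while photoreceptors and bipolar cells release from ribbon synapses, which lack synapsins and use syntaxin 3 in place of syntaxin 1 and complexins 3 and 4 in place of 1 and 2. Synaptophysin, synaptotagmin 1, SNAP-25, VAMP2 and SV2B are also found in photoreceptor terminals, so the members differ in how many retinal cell types can supply their transcripts.

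Library totals lay between 9597635 and 12149448 counts. Values are given as CPM, the reads of a gene relative to its library's total, with totals adjusted by edgeR's TMM method, which assumes that most genes do not differ. The 8 rod markers summed to 501 to 1165 CPM in rd10, against 77040 to 86686 CPM in GFP and 71148 to 95423 CPM in wild type, and all 8 fell in rd10 against both groups. The 8 amacrine markers summed to 2189 to 2267 CPM in rd10, 1399 to 1479 CPM in GFP and 1314 to 1475 CPM in wild type. The 7 bipolar markers summed to 2074 to 2661 CPM, 1222 to 1470 CPM and 1118 to 1418 CPM in the same order of groups, and the 7 ganglion cell markers to 1368 to 1564 CPM, 885 to 1059 CPM and 947 to 1048 CPM. The sum of the 6 Müller glia markers was higher in every rd10 library as well. The 6 cone markers summed to 1002 to 1091 CPM in rd10, 1089 to 1553 CPM in GFP and 1209.7 to 1752 CPM in wild type. Of these, 1 fell and 0 rose in rd10 against each group, and Opn1sw averaged 221, 415 and 488 CPM in the same order. The sums of the horizontal cell markers overlapped between all groups, but 2 of these 4 markers rose and 0 fell against each group. Among all genes 14.5% rose and 13.9% fell against wild type, and 15.2% and 15% against GFP. Markers of all these retinal cell types were detected. Cryaa, a lens crystallin, exceeded 100 CPM in rd10 2, GFP 1, wild type 2 and wild type 3. GFP 2 and wild type 3 stood apart from the other normal libraries on the second principal component (17.7% of the variance), at -49.2 and -26.8, and they had the lowest slopes of level on transcript length, -0.30 and -0.23 against -0.11 to 0.21 in the other 7 libraries. In whole tissue, fewer cells of a type and less RNA per cell cannot be told apart.

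In rd10 against wild type, Sv2a, Syn1 and Syn2 rose and Sv2b fell on the TMM scale, and the other 6 members did not pass the test. Here a gene is said to rise or fall where the adjusted p of edgeR's quasi-likelihood test was under 0.05 after Benjamini-Hochberg adjustment over all genes. These 3 of 10 members stand beside 14.5% of all genes called higher, and the 1 of 10 beside 13.9% called lower. In rd10 against GFP the same 4 members passed in the same directions and Stx1a and Cplx1 rose as well, so that 5 of 10 were higher, beside 15.2% of all genes, and 1 of 10 lower, beside 15% of all genes. The rd10 libraries are shared by both comparisons. The libraries did not overlap for 7 of 10 members against wild type and 6 of 10 against GFP, where 50.5% and 48.2% of all genes did not overlap. The median log2 fold change of the members was 0.39 against wild type and 0.44 against GFP, and the median of all genes was -0.03 and -0.02.

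**Figure D1:**
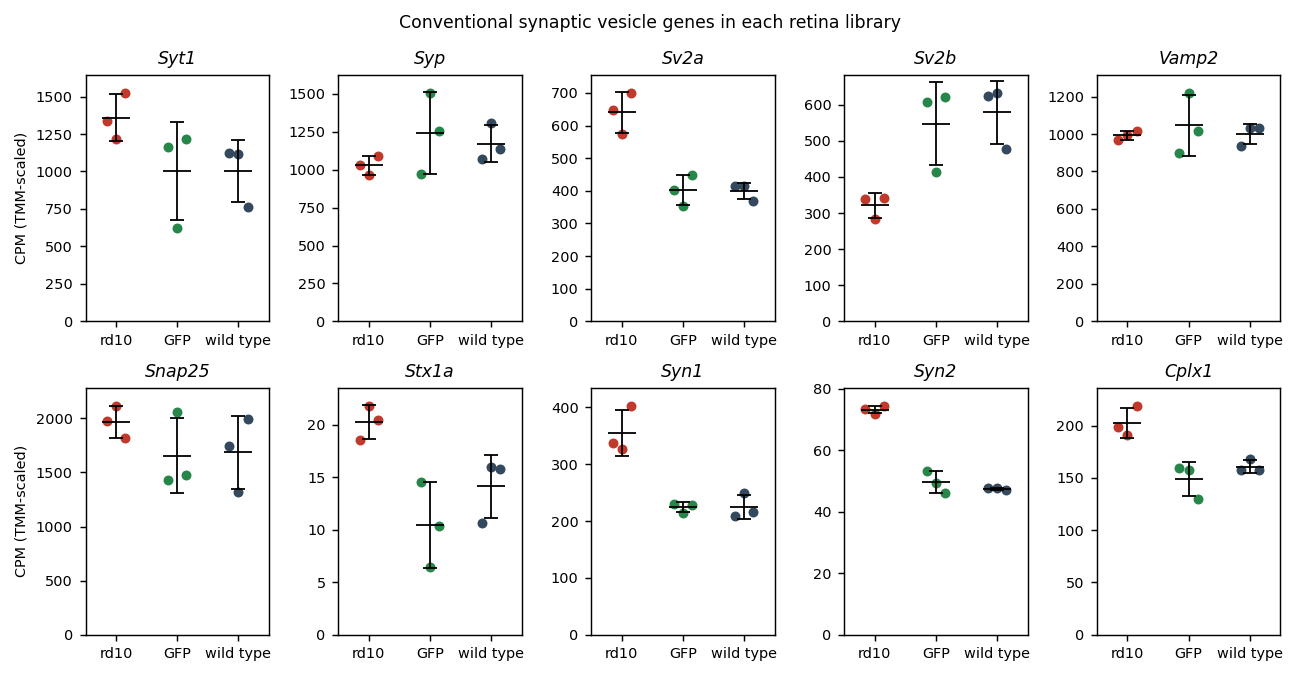
Level of each of the 10 genes in every library, in CPM after TMM scaling, with the axis of each panel starting at 0; points are libraries, and the wide bar with whiskers is the group mean ± SD (n = 3 libraries). Sv2a, Syn1, Syn2 and Cplx1 lie higher and Sv2b lower in all 3 rd10 libraries than in all 6 normal libraries on this scale; scaled to inner retinal neuron genes, the mean log2 difference of Sv2a, Syn1, Syn2 and Cplx1 turned below 0.

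Without GFP 2 and wild type 3, the libraries that stood apart, the counts stayed at 3 higher and 1 lower against wild type and at 5 higher and 1 lower against GFP. Without the 4 libraries that held lens RNA, 2, 2 and 1 libraries were left in the rd10, GFP and wild type groups. The members then lost their calls in both comparisons. Fewer of all genes passed as well, so the lost calls are not particular to the members. The log2 fold changes against wild type were then 0.70 for Sv2a, 0.82 for Syn1, 0.63 for Syn2 and -0.88 for Sv2b, and the test then rested on fewer libraries.

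For orientation in sequence, the 250 bases upstream of the RefSeq start sites (build GRCm38.p6) are shown for Syn1, which holds the motif matches among the members that rose, and for the SV2 pair, whose genes moved apart. In capitals are matches to the left arm of the RE1 element, TTCAGCACC, and to the cyclic AMP response element, TGACGTCA, in Syn1, and to the right arm of RE1, GGACAGNGC, in Sv2b; RE1 is the element of the neuronal repressor REST. Sequences are 5′ to 3′ on the strand of the gene, at chrX:20920919-20921168 (minus), chr3:96180977-96181226 (plus) and chr7:75309263-75309512 (minus).
Syn1: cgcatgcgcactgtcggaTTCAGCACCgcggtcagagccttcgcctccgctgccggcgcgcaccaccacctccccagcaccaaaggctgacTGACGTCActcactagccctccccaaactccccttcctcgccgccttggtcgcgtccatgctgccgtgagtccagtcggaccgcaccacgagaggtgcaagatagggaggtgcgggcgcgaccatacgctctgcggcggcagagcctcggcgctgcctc
Sv2a: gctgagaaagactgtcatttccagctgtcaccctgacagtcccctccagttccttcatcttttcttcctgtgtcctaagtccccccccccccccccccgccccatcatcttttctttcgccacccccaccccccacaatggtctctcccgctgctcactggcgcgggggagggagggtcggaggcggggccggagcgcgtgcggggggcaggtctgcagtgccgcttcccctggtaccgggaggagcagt
Sv2b: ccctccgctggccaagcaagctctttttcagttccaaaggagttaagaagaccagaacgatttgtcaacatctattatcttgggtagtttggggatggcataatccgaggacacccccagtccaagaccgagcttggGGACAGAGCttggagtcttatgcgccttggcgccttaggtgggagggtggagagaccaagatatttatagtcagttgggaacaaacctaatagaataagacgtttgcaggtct
In Syn1 the RE1 arm began 232 bases and the response element 159 bases before the start site, and in Sv2b the RE1 arm began 113 bases before it. Both strands were searched, and the 3 motifs do not overlap in these windows. Of 32851 windows of 300 bases in the RefSeq table, 0.371% held the left arm, 1.92% the right arm and 1.79% the response element. Of the 10 members 8 were matched to 13 windows, and no other member window held one of the 3 motifs. Matches are letters in a window and say nothing of binding.

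The SV2 proteins are glycoproteins of the vesicle membrane that regulate its priming, and their genes moved in opposite directions. Sv2a (mm9 chromosome 3, 95985150 to 95999103) had 648, 575 and 700.2 CPM in the rd10 libraries, against 404, 355 and 448 CPM in GFP and 414, 415 and 370.3 CPM in wild type. Every rd10 library exceeded every normal library, and the means were 641 ± 63.1, 402 ± 46.9 and 399.8 ± 25.5 CPM (SD, n = 3 each). Sv2a was 1.60-fold higher in rd10 than in wild type (log2 fold change 0.68, SE 0.16, adjusted p = 0.0103) and 1.59-fold higher than in GFP (adjusted p = 0.0105). Leaving out any 1 library kept it past the threshold in both comparisons, with adjusted p values up to 0.0422.

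Sv2b (mm9 chromosome 7, 82259781 to 82454148), the SV2 form of rod terminals, had 338, 283 and 342 CPM in rd10, against 608, 414 and 621 CPM in GFP and 625, 633 and 479 CPM in wild type. All rd10 libraries lay below all normal libraries, and the 2 lowest normal values belonged to GFP 2 and wild type 3. Sv2b was 1.80-fold lower in rd10 than in wild type (log2 fold change -0.85, SE 0.20, adjusted p = 0.0109) and 1.71-fold lower than in GFP (log2 fold change -0.77, adjusted p = 0.0161). The call depended on single libraries: without rd10 2 the adjusted p was 0.0563 against wild type and 0.0707 against GFP, and without GFP 3 it was 0.0650 against GFP. With library totals Sv2b did not pass against GFP (log2 fold change -0.45, adjusted p = 0.0889). Without GFP 2 and wild type 3 the log2 fold change was -0.97 against wild type and -0.94 against GFP.

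Syp (mm9 chromosome X, 7215706 to 7230382) encodes synaptophysin, the abundant marker protein of vesicles at both kinds of synapse. Its levels were 1028, 962 and 1091 CPM in rd10, against 968, 1505 and 1253 CPM in GFP and 1071, 1307 and 1136 CPM in wild type. The groups overlapped, and the log2 fold changes of -0.19 against wild type and -0.27 against GFP did not pass (adjusted p = 0.463 and adjusted p = 0.275). Syt1 (mm9 chromosome 10, 107935314 to 108447675), the fast calcium sensor of release, had 1338, 1214 and 1525 CPM in rd10, against 1165, 624 and 1217 CPM in GFP and 1124, 1117 and 763 CPM in wild type. The rd10 libraries lay above the wild type libraries but rd10 2 lay just below GFP 3. The log2 fold change was 0.44 in both comparisons (SE 0.26, adjusted p = 0.220 and adjusted p = 0.215), with the 95% interval against wild type from -0.13 to 1.01. GFP 2 and wild type 3 were again the lowest libraries, and without them the log2 fold change was 0.27 against wild type and 0.19 against GFP. With library totals Syt1 passed in both comparisons (0.73, adjusted p = 0.0406 against wild type, and 0.76, adjusted p = 0.0322 against GFP). The gene Gm5136 lies inside Syt1 on the same strand and had 6 to 114 counts per library.

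**Figure D2:**
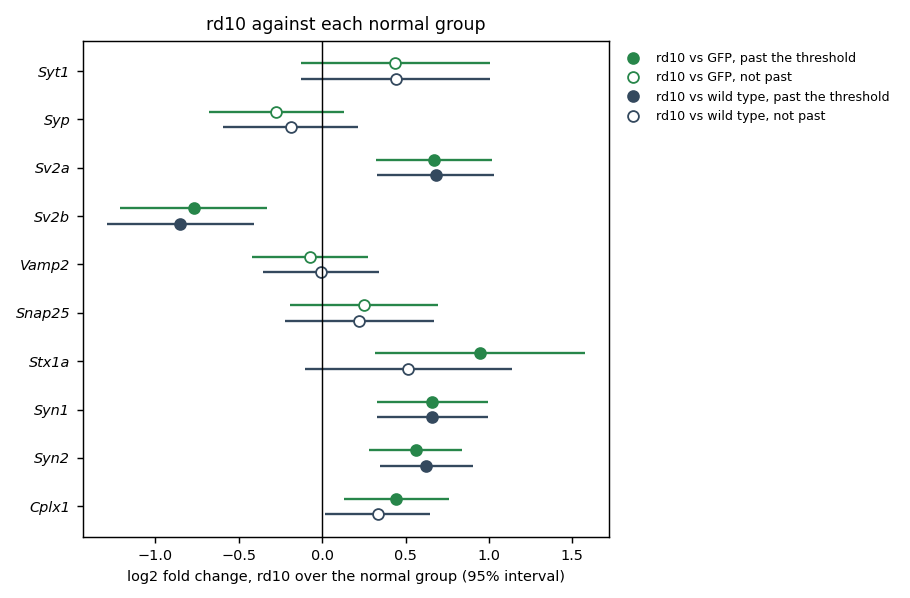
Log2 fold change of each gene in rd10 over GFP (green) and over wild type (dark blue-grey) on the TMM scale, with 95% intervals from edgeR's quasi-likelihood fit; filled points had an adjusted p under 0.05. Sv2a, Syn1 and Syn2 lie above 0 and Sv2b below 0 in both comparisons; with scaling to inner retinal neuron genes Sv2a, Syn1 and Syn2 fell below 0, to -0.090, -0.11 and -0.14 against wild type.

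The SNARE genes were among the most and the least abundant members, and none of the 3 passed against wild type. By unadjusted p under 0.05, 0 of them did, and DESeq2 called 0. Vamp2 (mm9 chromosome 11, 68902030 to 68905883), the vesicle SNARE, had 969.5, 996 and 1017 CPM in rd10, 901, 1219.7 and 1017 CPM in GFP and 936, 1032 and 1032 CPM in wild type. The groups overlapped, and the log2 fold change was -0.01 against wild type (95% interval -0.36 to 0.34, adjusted p = 0.974) and -0.07 against GFP (adjusted p = 0.746). Snap25 (mm9 chromosome 2, 136539186 to 136608164), a SNARE of the plasma membrane, had 1977, 2112 and 1816 CPM in rd10, 1427, 2055 and 1479.7 CPM in GFP and 1743, 1323 and 1994 CPM in wild type. These values overlapped too, with a log2 fold change of 0.22 against wild type (95% interval -0.22 to 0.67, adjusted p = 0.430) and 0.25 against GFP (adjusted p = 0.361).

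Stx1a (mm9 chromosome 5, 135499442 to 135526969), the syntaxin of conventional synapses, was the least abundant member. It had 18.6, 21.8 and 20.5 CPM in rd10, against 14.6, 6.41 and 10.4 CPM in GFP and 10.7, 15.96 and 15.8 CPM in wild type, from 56 to 278 counts per library. All rd10 libraries lay above all normal libraries, and the GFP libraries spread widely. Stx1a was 1.93-fold higher in rd10 than in GFP (log2 fold change 0.95, SE 0.29, adjusted p = 0.0293). Against wild type the log2 fold change was 0.52 (SE 0.28, 95% interval -0.10 to 1.14, adjusted p = 0.189). The call against GFP was lost without rd10 1, rd10 2, rd10 3 or GFP 3 (adjusted p = 0.0616, adjusted p = 0.0825, adjusted p = 0.0740 and adjusted p = 0.0783). Without GFP 2, the lowest library, and wild type 3, the log2 fold change against GFP was 0.69 (adjusted p = 0.0438).

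The synapsins coat vesicles and hold the reserve pool, and both synapsin members were higher in rd10 than in GFP and in wild type on the TMM scale; with scaling to inner retinal neuron genes both lay below 0 in log2 fold change, at -0.11 for Syn1 and -0.14 for Syn2 against wild type and at -0.057 and -0.15 against GFP, with no call. Syn1 (mm9 chromosome X, 20437637 to 20498044) had 337, 327 and 402 CPM in rd10, against 230.4, 215 and 229 CPM in GFP and 209, 249 and 216 CPM in wild type. The rd10 values did not overlap those of either normal group, and the means were 355 ± 40.8, 225 ± 8.67 and 225 ± 21.5 CPM (SD, n = 3 each). Syn1 was 1.58-fold higher in both comparisons (log2 fold change 0.66, SE 0.15, adjusted p = 0.00944 against wild type and adjusted p = 0.00901 against GFP). Leaving out any 1 library kept the adjusted p at or under 0.0374. Araf overlaps Syn1 by 11 bases on the other strand and had 1547 to 2194 counts per library. Timp1 lies inside Syn1 on the other strand, and had 47, 46 and 68 counts in rd10, 9, 9 and 8 in GFP and 11, 15 and 7 in wild type, beside 4067 to 5454 counts of Syn1 in rd10 and 1875 to 2591 in the normal libraries. No source used here gives the strand setting of the counting, so reads of Timp1 and Syn1 cannot be told apart where the genes overlap.

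Syn2 (mm9 chromosome 6, 115084920 to 115232644) had 73.4, 72.0 and 74.4 CPM in rd10, against 53.2, 49.5 and 46.2 CPM in GFP and 47.7, 47.6 and 47.1 CPM in wild type. The libraries of each group lay close together, with means of 73.2 ± 1.21, 49.6 ± 3.50 and 47.5 ± 0.333 CPM (SD, n = 3 each). The rd10 values did not overlap those of either normal group, while the GFP and wild type values overlapped each other. Syn2 was 1.54-fold higher in rd10 than in wild type (log2 fold change 0.63, SE 0.13, adjusted p = 0.00525) and 1.48-fold higher than in GFP (adjusted p = 0.00849). Timp4 inside Syn2 had at most 14 counts in any library.

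Cplx1 (mm9 chromosome 5, 108947573 to 108979046), the complexin of conventional synapses, had 198, 191 and 219 CPM in rd10, against 159.5, 157 and 129.7 CPM in GFP and 157, 168 and 157 CPM in wild type. The rd10 libraries lay above all normal libraries. Cplx1 was 1.36-fold higher in rd10 than in GFP (log2 fold change 0.45, SE 0.14, adjusted p = 0.0375), and the log2 fold change of 0.33 against wild type did not pass (SE 0.14, adjusted p = 0.102). The call against GFP was lost without rd10 1, rd10 2, rd10 3, GFP 3 or wild type 3, with adjusted p values from 0.0537 to 0.131. It was also lost with no filter on low counts (adjusted p = 0.0520), with only the groups compared in the fit (adjusted p = 0.0689) and with a replicate block (adjusted p = 0.0646), and with scaling to inner retinal neuron genes the log2 fold change was -0.26. Against wild type Cplx1 passed with upper quartile scaling (adjusted p = 0.0496), library totals (adjusted p = 0.00667), the length trend removed (adjusted p = 0.0350) and DESeq2 (adjusted p = 0.0378).

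In GFP against wild type 0 of 10 members passed by edgeR, beside 0% of all genes called in each direction and 3.99% not overlapping, and the libraries of all 10 members overlapped. At an unadjusted p under 0.05 there were 0 of 10 members and 214 of all genes, and DESeq2 called 0 members. The log2 fold changes ran from -0.43 for Stx1a (95% interval -1.06 to 0.20) to 0.08 for Syp (95% interval -0.32 to 0.49).

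Ratios of genes within a library do not depend on how libraries are scaled, and 5 pairs were compared between the 3 rd10 and the 6 normal libraries by an exact two-sided permutation test, for which 0.0238 is the smallest p that this design allows. The ratios of Sv2a to Sv2b, Syn1 to Syp, Stx1a to Stx3 and Cplx1 to Cplx4 were higher in all 3 rd10 libraries than in all 6 normal libraries, each with this smallest p (exact p = 0.0238, 0.0298 after Benjamini-Hochberg adjustment over the 5 pairs). The ratio of Cplx1 to Cplx3 was not (exact p = 0.952). A higher ratio can come from either gene of the pair. Sv2b, Stx3 and Cplx4 were themselves lower in rd10 on the TMM scale, while Syp did not pass. Stx3 averaged 349, 1067 and 1054 CPM in rd10, GFP and wild type, and Cplx4 averaged 58.2, 569.9 and 586 CPM. The part of the rod loss in these ratios was not tested.

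The log2 ratio of Sv2a to Sv2b was 0.94, 1.02 and 1.03 in rd10, against -0.59, -0.22 and -0.47 in GFP and -0.59, -0.61 and -0.37 in wild type. Sv2a thus had more counts than Sv2b in rd10 and fewer in every normal library, with a difference of 1.47 or 2.78-fold. These counts are not divided by length. Per kilobase of exon, Sv2a exceeded Sv2b in rd10 and also in GFP 2 (81.8 against 70.0 CPM) and wild type 3 (85.4 against 80.9 CPM), and lay below it in the other normal libraries. The log2 ratio of Syn1, which ribbon terminals lack, to Syp, which they hold, was -1.61, -1.56 and -1.44 in rd10, against -2.07, -2.81 and -2.45 in GFP and -2.36, -2.39 and -2.39 in wild type. Its means were -1.53 ± 0.09 and -2.41 ± 0.24 (SD, n = 3 and n = 6), a difference of 0.88 or 1.84-fold.

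Stx3 encodes the syntaxin of ribbon synapses, and the log2 ratio of Stx1a to Stx3 was -4.15, -3.92 and -4.23 in rd10, against -6.05, -7.41 and -6.76 in GFP and -6.61, -6.29 and -5.76 in wild type. The difference was 2.38 or 5.21-fold, and Stx3 had more counts than Stx1a in every library. Cplx4 encodes the complexin of photoreceptor terminals, and the log2 ratio of Cplx1 to Cplx4 was 1.89, 1.58 and 1.93 in rd10, against -1.64, -1.93 and -2.24 in GFP and -1.90, -1.92 and -1.77 in wild type. Cplx1 had more counts than Cplx4 in rd10 and fewer in every normal library, a difference of 3.70 or 13.0-fold. For Cplx3, which rod bipolar cells, cones and some amacrine cells use, the log2 ratio of Cplx1 to it was -1.60, -1.58 and -1.28 in rd10, against -1.28, -1.65 and -1.78 in GFP and -1.21, -1.50 and -1.59 in wild type. The groups overlapped with a difference of 0.014, which turned to -0.051 with wild type as the only normal group and to -0.090 without rd10 3.

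**Figure D3:**
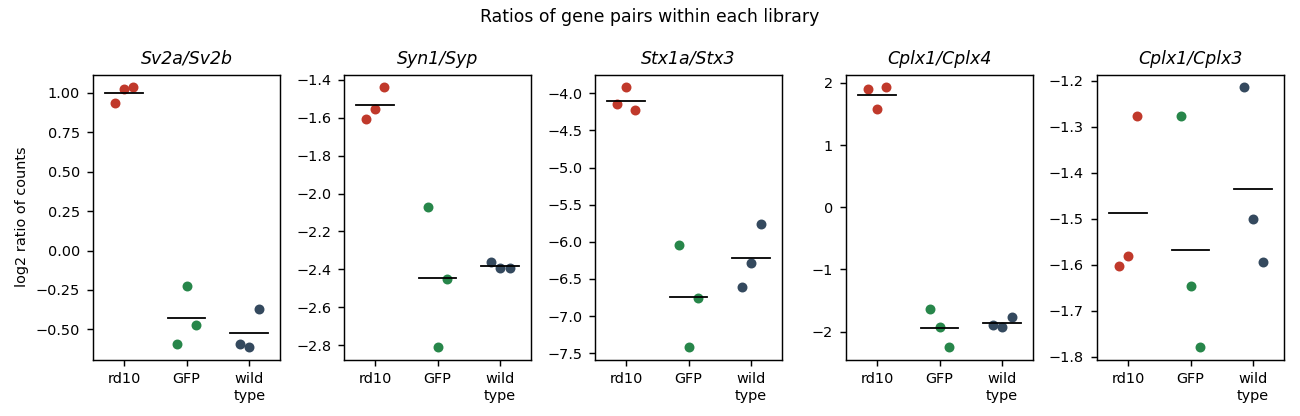
Log2 ratio of the counts of 2 genes in each library (points) with the group mean (bar), each panel on its own scale. The rd10 libraries lie above all 6 normal libraries for Sv2a/Sv2b, Syn1/Syp, Stx1a/Stx3 and Cplx1/Cplx4 and among them for Cplx1/Cplx3.

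Levels between genes are comparable only per length, and the order below uses CPM per kilobase of the union of annotated exons. In rd10 the order was Snap25, Syp, Vamp2, Syt1, Sv2a, Syn1, Cplx1, Sv2b, Syn2 and Stx1a. Snap25 had 881 ± 66.3, 740.3 ± 156 and 755 ± 152 CPM per kilobase in rd10, GFP and wild type (SD, n = 3 each), and Stx1a had 9.38 ± 0.754, 4.84 ± 1.89 and 6.55 ± 1.39. Snap25, Syp, Vamp2 and Syt1 held ranks 1 to 4 and Syn2 and Stx1a ranks 9 and 10 in every group. Sv2b had rank 8 in rd10, 6 in GFP and 5 in wild type, with 54.3 ± 5.62, 92.7 ± 19.6 and 97.9 ± 14.7 CPM per kilobase. Syn1 and Cplx1 were neighbours whose libraries overlapped in every group. Sv2a and Sv2b overlapped in GFP and in wild type, and Syp and Vamp2 in GFP; no other neighbours in the order overlapped. As a share of all counts, the 10 members held 0.794% to 0.807% in rd10, 0.552% to 0.600% in GFP and 0.564% to 0.617% in wild type. This share has no TMM adjustment and depends on the counts of all other genes, those of rods among them. On the TMM scale the members summed to 6754 to 7207 CPM in rd10, 5930 to 6600 CPM in GFP and 6210 to 6337 CPM in wild type.

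Among all genes 14.5% were called higher and 13.9% lower against wild type, and 15.2% and 15% against GFP. Beside these shares, of the 5 members whose proteins are also used in photoreceptor terminals, Syt1, Syp, Snap25, Vamp2 and Sv2b, 0 rose and 1 fell against both normal groups on the TMM scale. With library totals Syt1 rose against wild type (adjusted p = 0.0406) and GFP (adjusted p = 0.0322), and Sv2b did not pass against GFP (adjusted p = 0.0889). Of the 4 that rod terminals lack, Stx1a, Syn1, Syn2 and Cplx1, 2 rose against wild type and 4 against GFP on the TMM scale; with scaling to inner retinal neuron genes 0 of them did. Sv2a, of conventional and cone terminals, rose against both on the TMM scale. The grouping comes from background knowledge, and no test was made over it.

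Of 15 paralogues of the members, 4 rose, 2 fell and 9 did not pass against wild type, and 2 rose, 2 fell and 11 did not pass against GFP, with median log2 fold changes of 0.34 and 0.35. Among all genes 14.5% were higher and 13.9% lower against wild type, and 15.2% and 15% against GFP. Cplx4 averaged 58.2 ± 5.32 CPM in rd10, 569.9 ± 63.8 CPM in GFP and 586 ± 48.2 CPM in wild type (SD, n = 3 each), and was 10.1-fold lower in rd10 than in wild type (adjusted p = 6.59e-07). Stx3 averaged 349 ± 32.0, 1067 ± 86.0 and 1054 ± 194 CPM and was 3.02-fold lower (adjusted p = 1.27e-04). These 2 paralogues of ribbon synapses stand at the low end of the list. Synpr, which encodes the synaptophysin relative synaptoporin, averaged 253 ± 42.5, 146 ± 13.5 and 133 ± 19.6 CPM (log2 fold change 0.93 against wild type, adjusted p = 0.00403, and 0.79 against GFP, adjusted p = 0.00848). Cplx2, the other complexin of conventional synapses, averaged 405 ± 25.8, 269 ± 38.1 and 266 ± 9.65 CPM (0.61, adjusted p = 0.0145, and 0.59, adjusted p = 0.0163), and turned to -0.16 against wild type with scaling to inner retinal neuron genes. With the trend on transcript length removed, Cplx2 did not pass against wild type (log2 fold change 0.45, adjusted p = 0.0598).

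Syn3 and Syt2 rose against wild type, with log2 fold changes of 0.82 (adjusted p = 0.0402) and 1.41 (adjusted p = 0.0281), and did not pass against GFP, with 0.73 (adjusted p = 0.0558) and 0.82 (adjusted p = 0.147). Syt2 lost its call without any 1 of the 3 rd10 libraries, wild type 2 or wild type 3 (adjusted p = 0.0544 to adjusted p = 0.0961), and Syn3 without the same libraries or GFP 3 (adjusted p = 0.0554 to adjusted p = 0.131). Timp3, which encodes a matrix-bound inhibitor of metalloproteinases, lies inside Syn3 on the other strand. It had 3178, 3265 and 3648 counts in rd10, against 1276, 821 and 1077 in GFP and 955, 1332 and 1118 in wild type, beside 575 to 738 counts of Syn3 in rd10 and 177 to 435 in the normal libraries. All rd10 libraries of Timp3 lay above its normal libraries, and without a known strand setting reads of Timp3 and Syn3 cannot be told apart where the genes overlap. Cplx3 averaged 568 ± 36.3, 441 ± 52.8 and 438 ± 63.3 CPM and did not pass (log2 fold change 0.37, adjusted p = 0.117). Another 7 paralogues had log2 fold changes against wild type between -0.24 for Stx2 and 0.47 for Sv2c and did not pass.

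**Figure D4:**
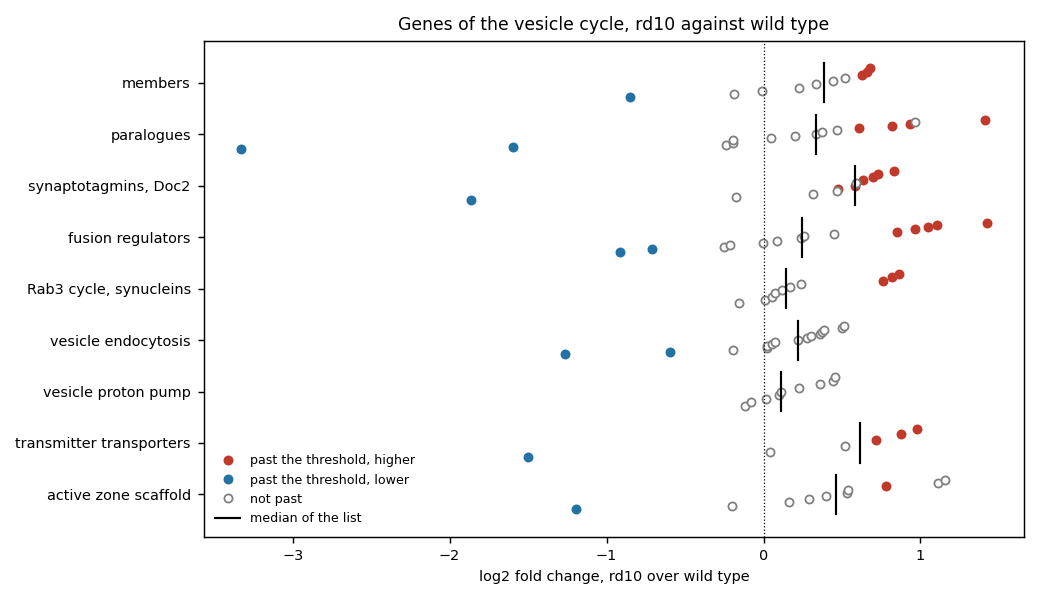
Log2 fold change in rd10 over wild type on the TMM scale for each tested gene of the 10 members, their paralogues and 7 lists of the vesicle cycle (red, higher; blue, lower; open, not past the threshold), with the list's median as a bar. Cplx4 and Stx3 are the lowest paralogues and no proton pump gene passed; scaling to inner retinal neuron genes shifted the median of all genes by -0.80 and turned Sv2a, Syn1, Syn2, Cplx2, Syt13, Rph3a and Slc32a1 below 0.

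Other genes of vesicle release were read in rd10 against wild type, beside the 14.5% higher and 13.9% lower among all genes. Of 11 synaptotagmins and Doc2 sensors, 6 rose and 1 fell, with a median log2 fold change of 0.58. Doc2b, a high-affinity sensor of slow release, fell (log2 fold change -1.86, SE 0.25, adjusted p = 4.80e-04), and Syt13 (0.64, adjusted p = 0.00710) and Syt4 (0.83, adjusted p = 0.00961) rose. Of 14 fusion regulators 5 rose and 2 fell, with a median of 0.25. Stxbp6, the syntaxin-binding protein amisyn (1.10, adjusted p = 7.66e-04), Unc13c, a priming factor (1.05, adjusted p = 0.00168), and Prrt2, a SNARE-binding membrane protein (0.96, adjusted p = 0.00429), had the smallest adjusted p of those that rose or fell. Of 10 genes of the Rab3 cycle and synucleins, with a median of 0.14, 3 rose and 0 fell: Rab3c, a vesicle GTPase (0.82, adjusted p = 0.00482), its effector gene Rph3a (0.76, adjusted p = 0.00944) and Rab27b (0.86, adjusted p = 0.0286). Rab27b lost its call without any 1 of the rd10 libraries or wild type 3 (adjusted p = 0.0582 to adjusted p = 0.0827). These directions hold on the TMM scale, and Syt13 and Rph3a turned to -0.13 and -0.012 with scaling to inner retinal neuron genes.

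After fusion the vesicle membrane is retrieved and refilled. Of 15 genes of vesicle endocytosis, with a median of 0.22, 4 had an unadjusted p under 0.05 and DESeq2 called 1 higher and 2 lower. By edgeR 0 rose and 2 fell, which were Ap2a2, a subunit of the clathrin adaptor AP-2 (-1.26, adjusted p = 0.00453), and Bin1, an amphiphysin (-0.59, adjusted p = 0.0141, and adjusted p = 0.0688 without rd10 1 and adjusted p = 0.0633 without rd10 2). With library totals Bin1 had a log2 fold change of -0.31 and did not pass (adjusted p = 0.124). Of 9 tested genes of the vesicle proton pump, which acidifies the vesicle for transmitter uptake, 0 passed by edgeR, 1 had an unadjusted p under 0.05, and DESeq2 called 0, with a median of 0.11. Atp6v0a1, with the highest mean CPM of the list on a scale not divided by length, averaged 659.6 ± 79.1 CPM in rd10, 509.8 ± 115 CPM in GFP and 486 ± 83.2 CPM in wild type (log2 fold change 0.44, adjusted p = 0.133), and Atp6v0c was listed with 0 counts in all 9 libraries. Without GFP 2, Atp6v0a1 had an adjusted p of 0.0479.

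The vesicular transmitter transporters load the vesicle and differ by cell type. Of 6, 3 rose and 1 fell, with a median of 0.62. Slc17a7, the glutamate transporter VGLUT1 of photoreceptors and bipolar cells, averaged 736 ± 90.1 CPM in rd10, 2084 ± 416 CPM in GFP and 2082 ± 517 CPM in wild type (log2 fold change -1.50, adjusted p = 9.38e-04). Slc17a6, VGLUT2 of ganglion cells (0.88, adjusted p = 0.00302), and Slc32a1, the GABA and glycine transporter of amacrine and horizontal cells (0.71, adjusted p = 0.00385), rose on the TMM scale, and Slc32a1 turned to -0.055 with scaling to inner retinal neuron genes. Of 10 active zone scaffold genes shared by both kinds of synapse 1 rose and 1 fell. Rims2 fell (-1.20, adjusted p = 0.0370) and Erc1 rose (0.78, adjusted p = 0.0396), and the list's median was 0.46. Rims2 lost the call without any 1 of the rd10 libraries, GFP 3, wild type 1 or wild type 2 (adjusted p = 0.0513 to adjusted p = 0.124), and Erc1 without any 1 of the rd10 libraries, GFP 3 or any wild type library (adjusted p = 0.0504 to adjusted p = 0.130). Rims2 did not pass with library totals (-0.91, adjusted p = 0.0817), and Erc1 did not pass with the length trend removed (0.41, adjusted p = 0.0693). Each gene named above from the paralogues and the 7 lists that rose against wild type lost its call with scaling to inner retinal neuron genes and without the 4 libraries with lens RNA. Of those that fell, Ap2a2, Bin1, Slc17a7 and Rims2 lost it without these 4 libraries, and Cplx4, Stx3 and Doc2b did not. Slc17a6 is itself among the ganglion cell markers that set the inner retinal neuron scale. Its lost call on that scale is therefore not an independent check. Against GFP the counts of genes higher and lower in these 7 lists were 5 and 1 for the calcium sensors, 5 and 2 for the fusion regulators, 3 and 0 for the Rab3 cycle, 0 and 2 for endocytosis, 0 and 0 for the proton pump, 3 and 1 for the transporters and 1 and 1 for the active zone.

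The scale on which levels are read bears on each direction. Scaling by library totals shifted the median log2 fold change of all genes to 0.25 against wild type and 0.31 against GFP, with 3603 genes higher and 1079 lower against wild type, beside 2067 and 1988 with TMM. Scaling to the marker genes of bipolar, amacrine, ganglion and horizontal cells shifted it to -0.80 and -0.74, with 174 higher and 7911 lower. On that scale Sv2a, Syn1 and Syn2 differed by -0.090, -0.11 and -0.14 from wild type with no call, and Syp, Sv2b, Vamp2, Snap25 and Cplx1 were lower, with log2 fold changes of -0.96, -1.62, -0.78, -0.53 and -0.44. A scaling shifts all genes by nearly the same amount, so values relative to the median of all genes are nearly equal across the 6 scalings by construction. Against wild type Sv2a stood 0.71 above that median, Syn1 0.68 to 0.69 above, Syn2 0.65 to 0.66 above and Sv2b 0.81 to 0.82 below. The part of the rod loss and of the higher inner retinal marker levels in these values was not tested.

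**Figure D5:**
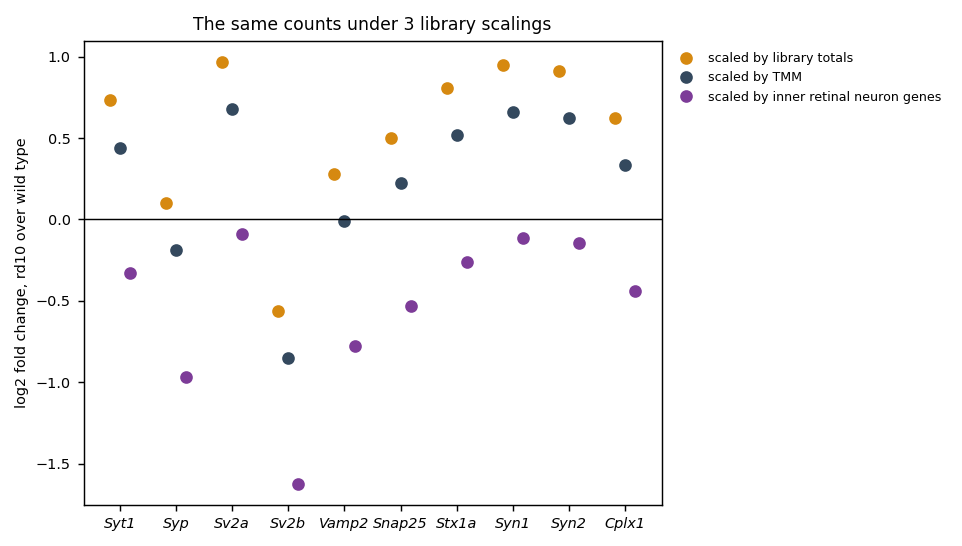
Log2 fold change of each gene in rd10 over wild type when libraries are scaled by their totals (orange), by TMM (dark blue-grey) and by marker genes of inner retinal neurons (purple). Sv2b lies below 0 under all 3, at -0.56, -0.85 and -1.62, while Sv2a, Syn1 and Syn2 lie above 0 under the first pair and slightly below 0 under the last.

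The genes outside the set whose log2 levels followed the members' mean most closely over the 9 libraries were Ncan (Pearson r = 0.994), Accn4 (0.993), C630004H02Rik (0.988), Nynrin (0.987) and Jup (0.987), among 14290 genes. Ncan, a chondroitin sulphate proteoglycan of neural matrix, had 18.2, 16.5 and 21.8 CPM in rd10, against 8.16, 5.84 and 8.29 CPM in GFP and 8.17, 9.90 and 7.42 CPM in wild type. The libraries fall into rd10 and normal ones, so each correlation is a description of these 9 libraries.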

How the data were processed

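The authors deposited 1 table of counts per library, with 1 whole-number count for each of 21769 genes, placed on the mouse build mm9 per the submitters' processing notes. The aligner, counting program and strand setting: not given in the sources used here. Per the labels' protocols, mRNA was captured by its poly(A) tail, broken into pieces and copied from random primers. The series' design text calls the replicates biological. Counts between replicate libraries differed by more than counting noise (chi-square per degree of freedom 13.1 to 76.1). The p-values of edgeR set a difference between groups against the spread between these libraries. Those of the ratios place it among rearrangements of the libraries.

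The members and gene lists were chosen with earlier results of these data known. A single edgeR 4.0.16 model (R 4.3.3) with 1 mean per group was fitted to all 9 libraries after filterByExpr (minimum count 10, minimum total 15) and TMM scaling, and groups were compared by the quasi-likelihood F-test, with Benjamini-Hochberg adjustment over the 14300 genes tested. The fit was tested on simulated data with 200 genes changed. In rd10 against wild type it recovered 5.97% of 1.5-fold, 28.4% of 2-fold and 93.9% of 4-fold changes. Against GFP these shares were 1.49%, 29.9% and 92.4%, and at most 0.078% of unchanged genes were called. The shares describe that simulation only, because many more genes were called in the data, where the cut on the adjusted p was less strict. Ratios of counts, each plus 0.5, were compared by exact permutation. Lengths are exon unions of GENCODE M21. Coordinates of genes are those of the files with 1 added to the start. Named are all members, the paralogues (values of 1 are not reported here), up to 3 genes per list by smallest adjusted p past the threshold against wild type (otherwise the highest mean CPM), the 5 genes most alike and genes overlapping a member. Alternatives were other scalings, DESeq2 1.42.0, no filter, a replicate block, 2 groups only and libraries left out. Removing a transcript length trend and leaving out GFP 2 and wild type 3 were chosen after seeing the data.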

Additional observations from a re-analysis of the deposited data

How the results depend on the processing

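With 3 libraries in a group, most 1.5-fold and 2-fold changes were missed in simulated data with 200 genes changed. In the data themselves 2067 genes were called higher and 1988 lower against wild type. The cut on the adjusted p was therefore stricter in the simulation, and its shares are not the power of these comparisons. Sv2a, Syn1 and Syn2 passed against wild type at log2 fold changes of 0.68, 0.66 and 0.63 on the TMM scale. How small a change could be resolved was not tested. With inner retinal neuron scaling, log2 fold changes against wild type that were above 0 on the TMM scale were -0.33 for Syt1, -0.090 for Sv2a, -0.53 for Snap25, -0.26 for Stx1a, -0.11 for Syn1, -0.14 for Syn2, -0.44 for Cplx1, -0.43 for Syngr3, -0.57 for Vamp1, -0.71 for Vamp3, -0.30 for Sv2c, -0.16 for Cplx2, -0.40 for Cplx3, -0.13 for Syt13, -0.012 for Rph3a, -0.34 for Atp6v0a1 and -0.055 for Slc32a1. Against GFP they were -0.29 for Syt1, -0.051 for Sv2a, -0.45 for Snap25, -0.057 for Syn1, -0.15 for Syn2 and -0.26 for Cplx1. The members called on that scale were 0 higher and 5 lower against wild type, and 0 higher and 3 lower against GFP. Of the 14300 genes tested 8085 and 7808 were called. They were 174 higher and 7911 lower against wild type, and 253 higher and 7555 lower against GFP. With library totals, 5 members were higher against wild type and 0 lower against GFP, beside 3603 and 1055 of the 14300 genes tested. Values that turned above 0 were 0.099 for Syp, 0.28 for Vamp2, 0.099 for Syngr1, 0.091 for Snap23 and 0.032 for Stx2 against wild type, and 0.054 for Syp and 0.26 for Vamp2 against GFP.

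Vamp2 lay near 0 and turned sign against wild type with DESeq2 size factors (0.014), upper quartile scaling (0.070), no filter (0.011), the DESeq2 test (0.014), without libraries with lens RNA (0.082), with the length trend removed (0.017), without GFP 2 and wild type 3 (0.012) and over single libraries left out (-0.026 to 0.031). Against GFP it was 0.030 with upper quartile scaling, 0.049 without GFP 2 and wild type 3, and -0.15 to 0.054 over single libraries left out. Vamp3 was -0.18 without libraries with lens RNA and -0.082 to 0.21 over single libraries left out, and Snap23 was -0.30 to 0.049. The difference in the log2 ratio of Cplx1 to Cplx3 was -0.051 with wild type as the only normal group and -0.090 to 0.072 over single libraries left out, and that of Cplx1 to Cplx4 was 3.93 without libraries with lens RNA. With single libraries left out, the ratios of Sv2a to Sv2b, Syn1 to Syp, Stx1a to Stx3 and Cplx1 to Cplx4 differed by 1.45 to 1.52, 0.80 to 0.95, 2.19 to 2.52 and 3.63 to 3.81. Without an rd10 library the exact p was 0.0714, the smallest that 2 against 6 libraries allow.

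Without libraries with lens RNA, which leaves 1 wild type library assumed to vary like the other groups, 0 members were called higher and 0 lower in both comparisons with rd10, and 543 and 1846 of all genes were called. Over single libraries left out, members called lower were 0 to 1 in both comparisons, members called higher were 3 in every fit against wild type and 3 to 5 against GFP, and all genes called were 2455 to 5421 against wild type, 2603 to 4404 against GFP and 0 to 4 in GFP against wild type, where DESeq2 called 2. The correlations of same-numbered libraries, taken on deviations from group means, had both signs and ran from -0.42 to 0.39. With 3 libraries in a group they cannot decide whether replicate numbers pair the libraries. With the replicate block, Cplx1 against GFP lost its call (log2 fold change 0.45, adjusted p = 0.0646) and no other member changed its call, and 1817 genes were higher and 1789 lower against wild type, and 1996 and 1912 against GFP. The cause of these changes was not tested.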

Other observations

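Each of the 3 synapsin genes holds a gene of a tissue inhibitor of metalloproteinases (TIMP) within it on the other strand. The rd10 libraries of Timp3 inside Syn3 and of Timp1 inside Syn1 were all above their normal libraries. Timp4 inside Syn2 had 8, 14 and 7 counts in rd10, 13, 0 and 1 in GFP and 0, 4 and 2 in wild type, and its groups overlapped.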
